A study of Mus musculus with 34 samples.

Results

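The 37 genes described here make cholesterol and fatty acids in mouse cells or control that synthesis, and they were taken from the 27179 gene identifiers of the count tables by name. They comprise 10 enzymes that build lanosterol from acetyl-CoA, 8 enzymes that turn lanosterol into cholesterol, 6 genes of sterol sensing and transport, 9 genes of fatty acid synthesis and 4 genes of sterol export. The study asked how TGF-β and c-Maf direct activated CD4 T cells towards follicular helper (Tfh) or Th17 cells. Bulk RNA was sequenced from 34 libraries of naive CD4 T cells of C57BL/6 mice that were activated in vitro on plate-bound anti-CD3 and anti-CD28, differentiated under conditions given by code, and sorted by flow cytometry into Trizol LS. Every group carries that activation, and no group of unstimulated cells was analysed here. The libraries form 6 groups: TfhA_4e4 (5 libraries), Tfh5_4e4 (6), Tfh2_1e4 (6), Tfh2_2e4 (5), Tfh2_4e4 (6) and Tfh2_6e4 (6). What the codes TfhA, Tfh5 and Tfh2 mean, what the number after them counts, which gate was sorted, and the age and sex of the mice are not stated in the labels. Nor do the labels say whether libraries of a group came from separate mice or cultures, so p-values measure the spread between libraries, which may be technical.

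Cholesterol is made from acetyl-CoA through mevalonate, farnesyl diphosphate, squalene and lanosterol. The transcription factors SREBP-1 and SREBP-2, encoded by Srebf1 and Srebf2, switch on these enzymes after the escort protein SCAP carries them to the Golgi, and INSIG-1 and INSIG-2 hold SCAP in the endoplasmic reticulum when sterols are plentiful. Oxysterols act through the nuclear receptors LXR to raise the exporters ABCA1 and ABCG1 and the ligase MYLIP. Activated T cells are known to raise sterol and fatty acid synthesis as they grow and divide.

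Promoters could be matched for 29 of the 37 genes in RefSeq's table of the GRCm38.p6 build. The windows were 300 bases long, from 250 before to 50 after a listed transcript start, which need not be the gene start. The windows of Acaca, Fasn and Srebf1 lay inside their genes, as did some, not all, windows of Pmvk, Dhcr7 and Insig2. Pmvk, Dhcr7, Insig2, Srebf1 and Scap had more than 1 window and so more places for a match. Below are the 250 bases upstream of 4 genes whose levels differ in pattern across the groups, read 5′ to 3′ on each gene's own strand. Hmgcs1 (chr13:119690101-119690350, plus strand) was high in TfhA_4e4 and lower in Tfh2_6e4 than in Tfh2_1e4, and Cyp51 (chr5:4104698-4104947, minus strand) had a lower group mean at each higher Tfh2 number. Insig1 (chr5:28071162-28071411, plus strand) was low in TfhA_4e4, and Elovl6 (chr3:129532136-129532385, plus strand) was highest in Tfh2_6e4. Capitals mark the sterol regulatory element searched as TCACNCCAC and the NF-Y box searched as CCAAT, each on both strands.
Hmgcs1: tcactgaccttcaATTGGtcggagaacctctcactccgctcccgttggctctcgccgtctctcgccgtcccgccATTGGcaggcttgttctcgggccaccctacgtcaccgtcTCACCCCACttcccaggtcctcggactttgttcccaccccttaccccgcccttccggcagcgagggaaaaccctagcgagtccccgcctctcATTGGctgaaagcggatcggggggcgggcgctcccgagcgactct
Cyp51: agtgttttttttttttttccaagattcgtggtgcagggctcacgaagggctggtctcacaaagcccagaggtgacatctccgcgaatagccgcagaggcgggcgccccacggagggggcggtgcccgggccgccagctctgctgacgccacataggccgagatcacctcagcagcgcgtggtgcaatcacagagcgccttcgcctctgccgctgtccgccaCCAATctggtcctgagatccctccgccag
Insig1: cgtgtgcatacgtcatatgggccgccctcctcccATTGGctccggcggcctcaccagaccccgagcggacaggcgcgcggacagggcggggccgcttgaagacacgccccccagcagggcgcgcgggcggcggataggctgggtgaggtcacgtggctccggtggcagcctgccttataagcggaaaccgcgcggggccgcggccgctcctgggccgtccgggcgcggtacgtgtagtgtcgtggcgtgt
Elovl6: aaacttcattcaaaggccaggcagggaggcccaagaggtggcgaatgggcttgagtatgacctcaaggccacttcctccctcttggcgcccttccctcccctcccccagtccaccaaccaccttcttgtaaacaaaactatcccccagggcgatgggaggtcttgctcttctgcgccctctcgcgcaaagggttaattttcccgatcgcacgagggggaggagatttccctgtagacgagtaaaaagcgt
The Hmgcs1 sequence held the element once and the CCAAT box 3 times, Cyp51 and Insig1 each held the CCAAT box once, and Elovl6 held neither. In the 300-base windows the element was found in 1 of 29 members (3.45%), against 1.44% of 27025 genes. The CCAAT box was found in 22 of 29 members (75.9%), against 41.1% of all genes and 43.2% of the 8853 genes with a window that were tested for expression. The Sp1 box GGGCGG was in 24 members (82.8%), against 38.2% of all genes and 69.8% of the tested genes. A match is a description of the letters, and a missing match says nothing about the factor.

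Levels are given as CPM, the counts scaled to a common library total. The libraries came from a kit that reads the 3′ ends of transcripts, so a count does not grow with transcript length, and levels are compared between libraries rather than between genes. Library totals lay between 4481509 and 9934245 counts, of which 2 identifiers without a gene symbol held 48.3%. Of the 37 genes, 36 passed the filter on low counts, and Fads2 did not. Marker sums were scaled to each library's total count alone, without the scaling adjustment made for the CPM of single genes. Summed over 8 T cell markers, CPM was 1595 to 1721 in TfhA_4e4, 2078 to 2312 in Tfh5_4e4 and 1902 to 2276 in Tfh2_4e4. The lists of B cell, myeloid and erythroid markers summed to at most 2.87 CPM in any library. The 4 NK cell markers summed to 1.86 to 6.46 CPM in TfhA_4e4 and 3.93 to 17.4 CPM in Tfh2_4e4, with medians of 4.83, 6.05, 5.16 and 8.58 CPM along the Tfh2 numbers from 1e4 to 6e4. The 2 CD8 T cell markers summed to 5.80 to 14.5 CPM in TfhA_4e4 and 5.25 to 10.55 CPM in Tfh2_4e4. The part of these markers in the results was not tested. The 2 mitochondrial ribosomal RNAs, a measure of RNA makeup, took 12.6 to 17.3% of the remaining counts in TfhA_4e4 libraries, against 8.06 to 11.1% in Tfh2_4e4 libraries, with no overlap.

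A pair of Tfh2 libraries stood apart from their groups. Replicate 3 of Tfh2_4e4 had 76.0 CPM of S100a6 and 90.1 CPM of Nrn1, and replicate 6 of Tfh2_2e4 had 67.2 and 61.1 CPM of them. TfhA_4e4 libraries had 415.0 to 588.1 CPM of S100a6 and 282.7 to 398.7 CPM of Nrn1, and the other Tfh2 libraries had 13.8 to 30.4 CPM and 1.08 to 31.6 CPM of them. These genes were chosen after their values were seen. Results that change without the pair are given both ways.

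**Figure D1:**
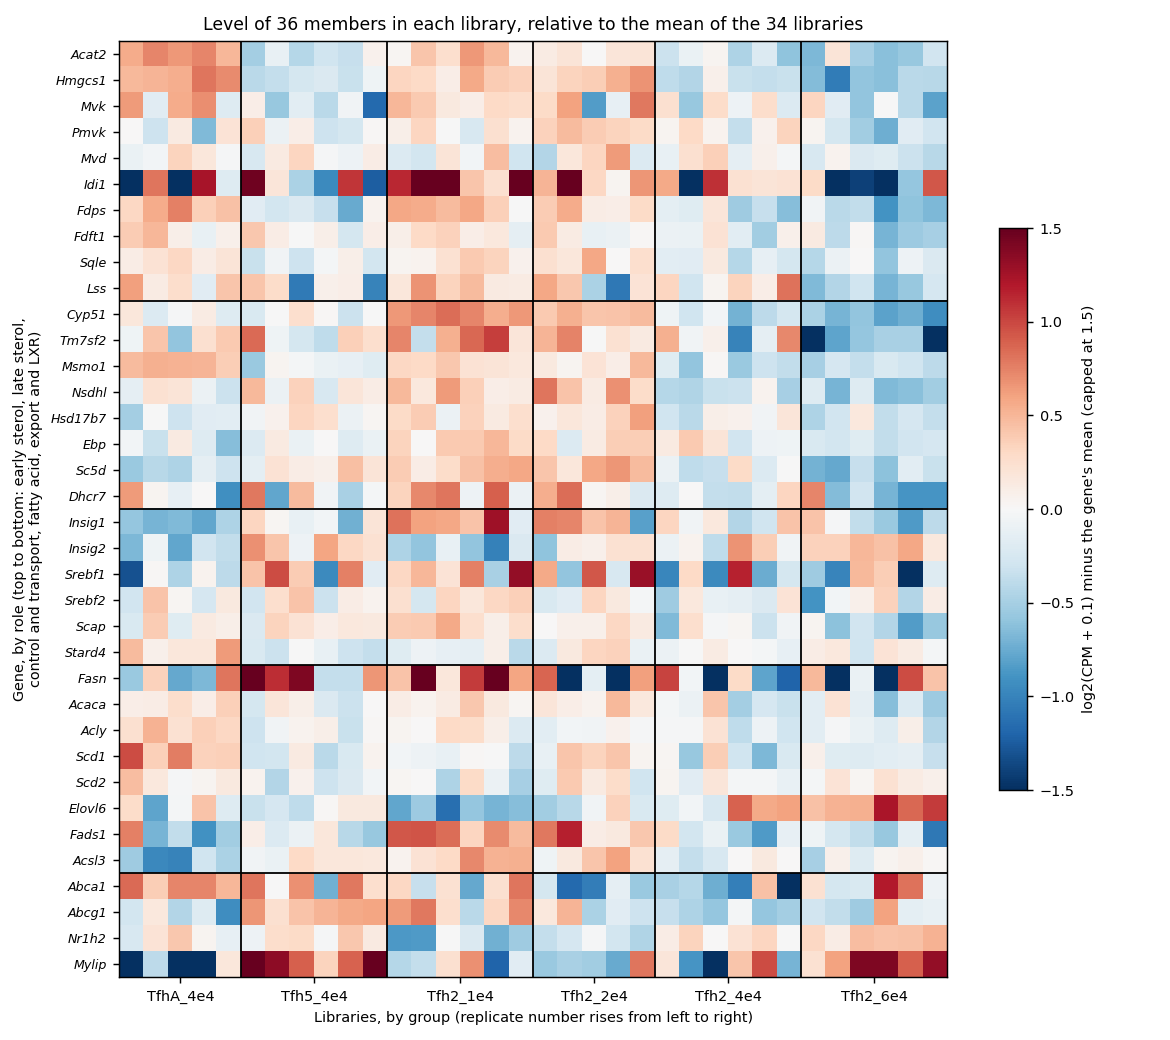
Each row is 1 of 36 genes, grouped by role, and each column is 1 of 34 libraries, grouped by code and number. Colour shows log2(CPM + 0.1) minus the gene's mean over all libraries, limited to 1.5 either way. Most sterol enzymes are above their mean in Tfh2_1e4 and Tfh2_2e4 and below it in Tfh2_6e4, and in TfhA_4e4 some enzymes are high (Acat2, Hmgcs1) while others are low (Sc5d).

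Between the codes at the same number, TfhA_4e4 cells had higher RNA of some sterol enzymes (Acat2, Hmgcs1, Fdps, Sqle and Msmo1) than Tfh2_4e4 cells, and lower RNA of both INSIG genes. Of 36 members, 9 rose (25.0%) and 3 fell (8.33%) in TfhA_4e4 by edgeR's quasi-likelihood test at an adjusted p under 0.05. Without the filter on low counts 7 rose and 3 fell. Over all 11357 genes tested 32.8% were called, 15.5% higher and 17.4% lower. In both directions together, members were called about as often as all genes. The share of members that rose was above the background and the share that fell was below it, but these gaps rest on few genes and were not tested. Among the 18 sterol enzymes, 5 rose and none fell. No enzyme was lower at an unadjusted p under 0.05 either, and DESeq2 and limma-voom called 0 lower. The median log2 fold change was 0.31 over the 10 enzymes up to lanosterol and 0.05 over the 8 enzymes after it, against -0.01 over all genes. In bulk RNA, fewer cells of a type and less RNA per cell cannot be told apart, here and in every comparison that follows.

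Acat2 encodes the thiolase that joins a pair of acetyl-CoA units in the first step. It had 65.1, 73.8, 70.0, 73.9 and 62.5 CPM in the 5 TfhA_4e4 libraries, against 29.1 to 45.7 CPM in the 6 Tfh2_4e4 libraries (median 36.9). All TfhA_4e4 libraries lay above all Tfh2_4e4 libraries, a 1.86-fold difference (log2 fold change 0.90, SE 0.14, edgeR adjusted p = 7.89e-07). Hmgcs1 (chromosome 13, 119690351 to 119708260, GRCm38.p6) encodes HMG-CoA synthase, which makes the precursor of mevalonate. It had 214.8, 218.4, 225.1, 269.7 and 252.5 CPM in TfhA_4e4 libraries, against 113.1 to 162.3 CPM in Tfh2_4e4 libraries (median 120.9). These groups did not overlap either, and Hmgcs1 was 1.87-fold higher in TfhA_4e4 (log2 fold change 0.90, SE 0.11, edgeR adjusted p = 3.79e-09).

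Fdps, farnesyl diphosphate synthase, at the branch to sterols, prenyl groups and ubiquinone, had 108.0, 128.5, 147.5, 112.0 and 118.7 CPM in TfhA_4e4 libraries, against 56.2 to 99.2 CPM in Tfh2_4e4 libraries (median 72.7). The groups stood apart by 1.68-fold (log2 fold change 0.75, SE 0.14, edgeR adjusted p = 3.34e-05). Sqle, squalene epoxidase, an oxygen-dependent control point, had 46.4, 49.9, 53.4, 46.6 and 49.4 CPM in TfhA_4e4 libraries, against 31.8 to 47.5 CPM in Tfh2_4e4 libraries (median 38.2). Its groups overlapped slightly and it rose less (log2 fold change 0.35, SE 0.12, edgeR adjusted p = 0.0214). Sqle lost its call without Tfh2_4e4 replicate 4 or 6 or TfhA_4e4 replicate 3 (log2 fold changes 0.30 to 0.32, adjusted p 0.0511 to 0.0640).

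None of the other enzymes up to lanosterol passed the test. Mvk, mevalonate kinase, had 11.4 ± 3.34 CPM in TfhA_4e4 and 9.01 ± 1.97 CPM in Tfh2_4e4 (SD, n = 5 and 6). Fdft1, squalene synthase, had 34.5 ± 5.99 CPM in TfhA_4e4 and 28.4 ± 4.75 CPM in Tfh2_4e4, Mvd, mevalonate diphosphate decarboxylase, 56.1 ± 7.24 and 56.2 ± 7.84 CPM, and Pmvk, phosphomevalonate kinase, 26.5 ± 6.12 and 30.0 ± 4.87 CPM, in the same order. Lss, which closes squalene epoxide to lanosterol, had 7.85 ± 1.59 CPM in TfhA_4e4 and 7.78 ± 2.13 CPM in Tfh2_4e4. Idi1, the isomerase of isopentenyl diphosphate, was close to the limit of detection, with 0, 1.04, 0, 1.44 and 0.470 CPM in TfhA_4e4 libraries, against 0 to 1.29 CPM in Tfh2_4e4 libraries (median 0.659). Its 19 counts in all of TfhA_4e4 and 31 in all of Tfh2_4e4 leave a wide error (log2 fold change -0.15, SE 0.81).

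Past lanosterol, Msmo1 was the member that rose. It encodes the methylsterol monooxygenase that starts removal of methyl groups from the sterol ring. Msmo1 had 73.6, 76.7, 75.6, 75.5 and 68.2 CPM in TfhA_4e4 libraries, against 34.9 to 53.5 CPM in Tfh2_4e4 libraries (median 41.8). The groups did not overlap and differed 1.75-fold (log2 fold change 0.80, SE 0.11, edgeR adjusted p = 9.12e-08). Cyp51 (chromosome 5, 4080674 to 4104697) encodes lanosterol demethylase, which acts earlier, and had 127.5, 98.8, 112.1, 124.0 and 99.7 CPM in TfhA_4e4 libraries, against 69.5 to 110.7 CPM in Tfh2_4e4 libraries (median 93.4). The groups overlapped and Cyp51 missed the threshold (log2 fold change 0.26, 95% interval 0.05 to 0.48, edgeR adjusted p = 0.0552). It passed by DESeq2 (0.29, adjusted p = 0.0253), by limma-voom (0.28, adjusted p = 0.0434), with RLE scaling (0.29, adjusted p = 0.0349) and with upper-quartile scaling (0.32, adjusted p = 0.0182). Without the pair of set-apart libraries it also passed (0.31, adjusted p = 0.0272), and leaving out any of 4 single libraries (Tfh2_4e4 replicate 1 or 3, TfhA_4e4 replicate 2 or 6) also moved it past the threshold.

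Nsdhl, the sterol dehydrogenase that acts after Msmo1, had 19.1, 24.7, 24.0, 19.8 and 16.7 CPM in TfhA_4e4 libraries, against 14.8 to 21.8 CPM in Tfh2_4e4 libraries (median 16.1), and did not pass the test. Sc5d, the sterol desaturase near the end of the pathway, had 23.7, 26.1, 25.2, 31.6 and 28.0 CPM in TfhA_4e4 libraries, against 26.6 to 42.5 CPM in Tfh2_4e4 libraries (median 31.4). Sc5d lay on the low side in TfhA_4e4 with overlapping groups (log2 fold change -0.26, SE 0.14, edgeR adjusted p = 0.139). Ebp, the gene of a sterol isomerase, had 34.5 ± 6.88 CPM in TfhA_4e4 and 41.2 ± 6.83 CPM in Tfh2_4e4 (SD, n = 5 and 6), and the ketosteroid reductase gene Hsd17b7 had 32.1 ± 4.13 and 35.96 ± 5.67 CPM. The sterol reductase gene Tm7sf2 had 3.87 ± 1.03 CPM in TfhA_4e4 and 3.87 ± 1.499 CPM in Tfh2_4e4. Dhcr7, whose enzyme makes cholesterol from its precursor, had 12.6 ± 4.61 CPM in TfhA_4e4 and 11.6 ± 2.26 CPM in Tfh2_4e4. None of these passed, and without TfhA_4e4 replicate 3 Ebp did (log2 fold change -0.35).

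Of the 6 genes of sterol control and transport, the 2 INSIG genes fell and 1 (Stard4) rose. Insig1 (chromosome 5, 28071412 to 28078662), itself a known SREBP target, had 20.5, 18.9, 19.2, 17.7 and 22.1 CPM in TfhA_4e4 libraries, against 22.6 to 41.3 CPM in Tfh2_4e4 libraries (median 31.9). Every TfhA_4e4 library was below every Tfh2_4e4 library, while Hmgcs1 stood the other way round (log2 fold change of Insig1 -0.70, SE 0.23, edgeR adjusted p = 0.0161, lost under limma-voom). Insig2, the relative whose RNA is not switched on by SREBP, had 12.3, 18.9, 11.4, 16.2 and 15.3 CPM in TfhA_4e4 libraries, against 15.1 to 31.6 CPM in Tfh2_4e4 libraries (median 19.7). Insig2 fell with overlap between the groups (log2 fold change -0.55, SE 0.18, edgeR adjusted p = 0.0170), and the call was lost without Tfh2_4e4 replicate 4 or TfhA_4e4 replicate 3 (adjusted p 0.0633 to 0.0763).

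Srebf2, the gene of the SREBP that mainly drives sterol enzymes, had 26.5, 43.5, 33.0, 27.2 and 35.7 CPM in TfhA_4e4 libraries, against 22.3 to 37.2 CPM in Tfh2_4e4 libraries (median 29.7). Srebf1, whose product mainly drives fatty acid genes and which is also an LXR target, had 3.58, 9.12, 6.46, 9.35 and 6.82 CPM in TfhA_4e4 libraries, against 4.50 to 20.1 CPM in Tfh2_4e4 libraries (median 6.39). Both overlapped widely and neither passed the test, and nor did Scap (35.3 ± 6.24 CPM in TfhA_4e4 and 31.6 ± 6.59 CPM in Tfh2_4e4, SD, n = 5 and 6). Stard4, a sterol carrier between membranes, had 95.1, 72.3, 77.4, 77.3 and 107.0 CPM in TfhA_4e4 libraries, against 63.2 to 74.7 CPM in Tfh2_4e4 libraries (median 67.9). It rose (log2 fold change 0.33, SE 0.11, edgeR adjusted p = 0.0201), a call lost without TfhA_4e4 replicate 1 or 6 (adjusted p 0.0673 to 0.113).

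In the fatty acid branch, Scd1 and Acly rose and Acsl3 fell. Scd1, a stearoyl-CoA desaturase, had 62.7, 40.8, 54.4, 40.6 and 40.7 CPM in TfhA_4e4 libraries, against 19.99 to 41.0 CPM in Tfh2_4e4 libraries (median 26.5). The groups overlapped at their edge (log2 fold change 0.77, SE 0.15, edgeR adjusted p = 5.85e-05). Its neighbour and close relative Scd2 had 87.9, 70.9, 62.8, 65.3 and 70.3 CPM in TfhA_4e4 libraries, against 56.4 to 72.0 CPM in Tfh2_4e4 libraries (median 62.2), and did not pass. How reads shared by the 2 desaturase genes were counted is not given in the sources used here.

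Acly, ATP citrate lyase, which supplies cytosolic acetyl-CoA to both branches, had 116.4, 141.7, 115.9, 126.6 and 122.5 CPM in TfhA_4e4 libraries, against 76.1 to 115.2 CPM in Tfh2_4e4 libraries (median 95.6). The groups did not overlap (log2 fold change 0.42, SE 0.11, edgeR adjusted p = 0.00228). Acsl3, an acyl-CoA synthetase of lipid droplets, had 47.1, 34.8, 33.98, 55.5 and 48.9 CPM in TfhA_4e4 libraries, against 53.1 to 75.4 CPM in Tfh2_4e4 libraries (median 65.2). It was lower in TfhA_4e4 with a small overlap (log2 fold change -0.54, SE 0.14, edgeR adjusted p = 0.00178). Fasn, fatty acid synthase, stayed at the low end of detection, with 0.398, 0.8289, 0.332, 0.359 and 1.18 CPM in TfhA_4e4 libraries, against 0.117 to 1.38 CPM in Tfh2_4e4 libraries (median 0.466). Acaca, acetyl-CoA carboxylase, had 26.4 ± 2.19 CPM in TfhA_4e4 and 21.5 ± 5.12 CPM in Tfh2_4e4 (SD, n = 5 and 6), and passed the test when Tfh2_4e4 replicate 3 was left out and when the set-apart pair was (log2 fold change 0.42, edgeR adjusted p = 0.0257 without the pair).

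Elovl6, which elongates palmitate, had 24.5, 11.6, 19.7, 27.1 and 17.6 CPM in TfhA_4e4 libraries, against 17.0 to 37.4 CPM in Tfh2_4e4 libraries (median 24.8). Fads1, a desaturase of polyunsaturated fatty acids, had 28.6, 10.4, 13.1, 8.99 and 11.8 CPM in TfhA_4e4 libraries, against 9.35 to 20.6 CPM in Tfh2_4e4 libraries (median 14.7). Neither passed, and in Fads1 replicate 1 of TfhA_4e4 stood far above the other 4. Fads2, its partner desaturase, was barely detected, with 14 counts over the TfhA_4e4 libraries, 0 over the Tfh5_4e4 libraries and 24, 7, 12 and 17 over the Tfh2 libraries from 1e4 to 6e4, and it was not tested.

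Of the export genes, Abca1, the pump that loads cholesterol onto apolipoproteins, had 7.56, 5.39, 6.96, 6.95 and 5.88 CPM in TfhA_4e4 libraries, against 1.21 to 5.64 CPM in Tfh2_4e4 libraries (median 2.701). It rose 2.31-fold with a slight overlap (log2 fold change 1.21, SE 0.34, edgeR adjusted p = 0.00482). Abcg1, which exports cholesterol to lipoproteins, had 5.97, 8.08, 5.30, 6.35 and 3.76 CPM in TfhA_4e4 libraries, against 4.81 to 7.13 CPM in Tfh2_4e4 libraries (median 5.15), and did not pass. Mylip, the ligase that marks lipoprotein receptors for degradation, had 0, 1.24, 0.332, 0.479 and 1.88 CPM in TfhA_4e4 libraries, against 0.469 to 3.39 CPM in Tfh2_4e4 libraries (median 1.44). Its fold change was imprecise (log2 fold change -1.10, SE 0.56, edgeR adjusted p = 0.134), and it passed without TfhA_4e4 replicate 6 (-1.65). Nr1h2, the gene of LXRβ, had 41.2 ± 7.44 CPM in TfhA_4e4 and 44.0 ± 4.61 CPM in Tfh2_4e4 (SD, n = 5 and 6). Of the 3 LXR targets Abca1, Abcg1 and Mylip, 1 rose and the other 2 did not pass.

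The share of mitochondrial ribosomal RNA moved with the TfhA code, so each call was recomputed with that share as a covariate. Acat2, Hmgcs1, Fdps, Msmo1, Acly and Scd1 stayed higher and Acsl3 stayed lower in TfhA_4e4, with log2 fold changes of 0.96, 0.56, 1.05, 0.85, 0.57, 0.87 and -1.04. The calls of Sqle (0.43, edgeR adjusted p = 0.0763), Insig1 (-0.25, adjusted p = 0.660), Insig2 (-0.66, adjusted p = 0.0704), Stard4 (0.22, adjusted p = 0.404) and Abca1 (0.87, adjusted p = 0.214) were lost. Fdft1 (0.75), Cyp51 (0.42) and Nsdhl (0.64) then passed as higher, and Sc5d (-0.55) and Elovl6 (-1.09) as lower. Since the shares of the groups did not overlap, covariate and code cannot be told apart, and the part of the share in these differences was not tested further.

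**Figure D2:**
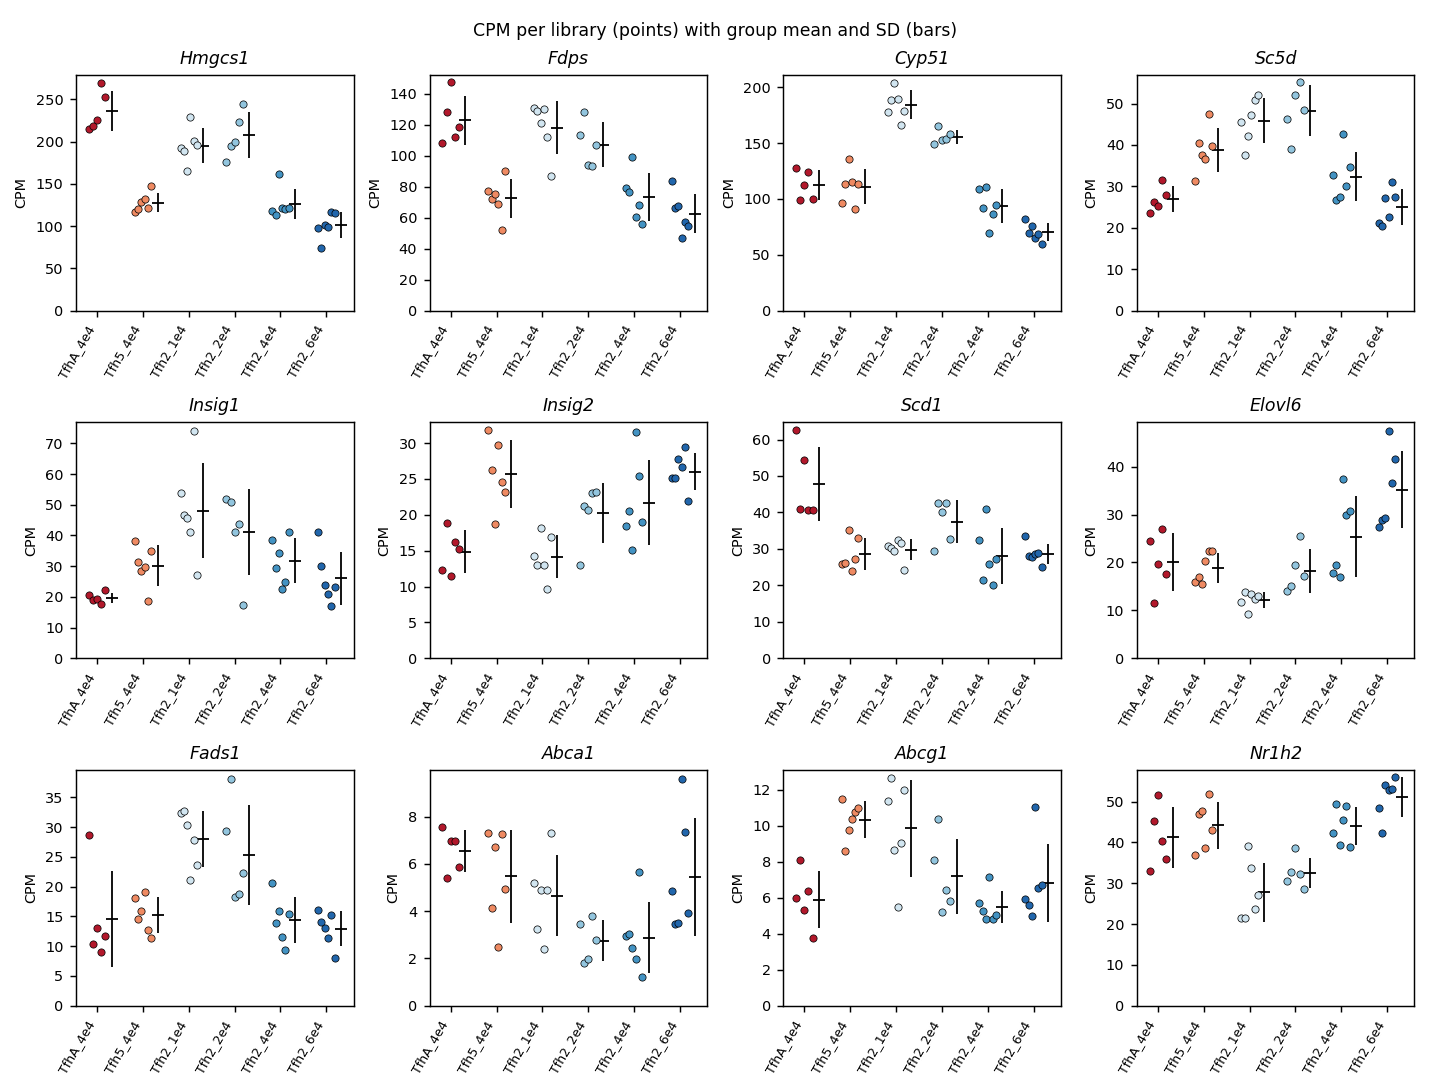
Each point is 1 library, with CPM on the vertical axis and the 6 groups along the horizontal axis. The short line is the group mean and the bar is 1 SD, for 12 genes. Hmgcs1 and Fdps are high in TfhA_4e4, and Insig1 is low and tightly grouped there. Along the Tfh2 numbers Cyp51 falls while Elovl6, Insig2 and Nr1h2 rise. Sc5d is highest in Tfh2_2e4 and lowest in Tfh2_6e4.

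Against the same Tfh2_4e4 libraries, Tfh5_4e4 cells differed in 1 member. Abcg1 had 8.59 to 11.5 CPM in the 6 Tfh5_4e4 libraries (median 10.6), against 4.81 to 7.13 CPM in the 6 Tfh2_4e4 libraries (median 5.15). No Tfh5_4e4 library was as low as any Tfh2_4e4 library, a 1.89-fold difference (log2 fold change 0.92, SE 0.22, edgeR adjusted p = 0.0106). That is 1 of 36 members higher and 0 lower, against 3.11% of all genes called, 1.41% higher and 1.70% lower. At an unadjusted p under 0.05, 6 members were higher and 1 lower, and DESeq2 and limma-voom each called 2 higher and 0 lower.

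The other LXR targets leaned the same way without passing. Abca1 had 2.47 to 7.29 CPM in Tfh5_4e4 libraries (median 5.84), against 1.21 to 5.64 CPM in Tfh2_4e4 libraries (median 2.701; log2 fold change 0.94, edgeR adjusted p = 0.110, past the threshold at 1.21 without Tfh2_4e4 replicate 5). Mylip had 2.12 to 5.05 CPM in Tfh5_4e4 libraries (median 3.76), against 0.469 to 3.39 CPM in Tfh2_4e4 libraries (median 1.44; log2 fold change 1.23, edgeR adjusted p = 0.152, past the threshold under limma-voom). Nsdhl (log2 fold change 0.47, edgeR adjusted p = 0.0712) passed in DESeq2 and without Tfh5_4e4 replicate 4.

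The sterol enzymes that were high in TfhA_4e4 were close to the Tfh2_4e4 level in Tfh5_4e4. Hmgcs1 had 127.8 ± 11.3 CPM in Tfh5_4e4 and 126.1 ± 18.01 CPM in Tfh2_4e4 (SD, n = 6 each), a log2 difference of 0.02 with a 95% interval from -0.19 to 0.22. Acat2 had 37.1 ± 5.69 CPM in Tfh5_4e4 and 37.1 ± 6.10 CPM in Tfh2_4e4, with an interval from -0.26 to 0.26. By edgeR, 0 of the 18 sterol enzymes passed in either direction. At an unadjusted p under 0.05, 3 were higher and 0 lower, and DESeq2 called 1 higher and limma-voom 0.

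TfhA_4e4 against Tfh5_4e4 shares its libraries with both comparisons above, so its values stand beside theirs as no separate support. Here 9 members rose (25.0%) and 6 fell (16.7%) in TfhA_4e4, against 39.5% of all genes called, 19.1% higher and 20.4% lower. Msmo1 had the 5 TfhA_4e4 values given above, against 35.8 to 54.1 CPM in Tfh5_4e4 libraries (median 48.8), without overlap (log2 fold change 0.63, edgeR adjusted p = 7.14e-06). Sc5d, which had missed the threshold against Tfh2_4e4, fell against 31.3 to 47.5 CPM in Tfh5_4e4 libraries (median 38.7; log2 fold change -0.53, SE 0.14, edgeR adjusted p = 0.00157). Insig2 lay at 18.7 to 31.8 CPM in Tfh5_4e4 libraries (median 25.4) and was lower in TfhA_4e4 by 0.80 on the log2 scale (edgeR adjusted p = 0.000416).

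Mylip showed a large difference between TfhA_4e4 and Tfh5_4e4, at a log2 fold change of -2.33 (SE 0.55, edgeR adjusted p = 0.000607). No TfhA_4e4 library had as much as the lowest Tfh5_4e4 library, whose 2.12 CPM compares with 1.88 CPM in the highest TfhA_4e4 library. Abcg1 also fell (log2 fold change -0.80, edgeR adjusted p = 0.00562), while Abca1 did not pass (0.27). Insig1 had 18.5 to 38.1 CPM in Tfh5_4e4 libraries (median 30.5) and was lower in TfhA_4e4 (log2 fold change -0.62, edgeR adjusted p = 0.0284). That Insig1 call was lost without Tfh5_4e4 replicate 1 or 6 or TfhA_4e4 replicate 3 or 5. It was also lost under limma-voom (-0.60, adjusted p = 0.0865) and with upper-quartile scaling (-0.55, edgeR adjusted p = 0.0514). The call of Mvk (0.70) was lost without any of Tfh5_4e4 replicates 2 and 6 and TfhA_4e4 replicates 1, 3 and 5, and that of Sqle (0.33) without any of Tfh5_4e4 replicates 1 and 3 and TfhA_4e4 replicates 2 and 3. With the mitochondrial share as a covariate Insig1 (-0.16), Mvk, Sqle, Stard4 and Abcg1 did not pass. Hsd17b7 missed the threshold in the main fit. It passed as lower in TfhA_4e4 without Tfh5_4e4 replicate 1 or 5 or TfhA_4e4 replicate 2 (-0.39 to -0.35).

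Of the 8 fatty acid genes tested, 2 rose (25.0%) and 1 fell (12.5%) in TfhA_4e4 against Tfh5_4e4, close to the share of all genes called. Scd1 was higher in TfhA_4e4 (log2 fold change 0.75, edgeR adjusted p = 7.21e-05), with 24.0 to 35.0 CPM in Tfh5_4e4 libraries (median 26.7). Acly was higher (0.42, adjusted p = 0.00178), with 78.2 to 104.7 CPM in Tfh5_4e4 libraries (median 97.5). Acsl3 was lower (-0.74, adjusted p = 2.35e-05), with 63.4 to 83.5 CPM in Tfh5_4e4 libraries (median 76.3). Srebf1 and Srebf2 did not pass, with 4.59 to 17.7 CPM (median 11.9) and 25.8 to 43.7 CPM (median 34.2) in Tfh5_4e4 libraries. Fasn had 0.471 to 3.23 CPM (median 1.27) and Scd2 46.8 to 66.3 CPM (median 58.1) in Tfh5_4e4 libraries, Idi1 0.177 to 1.68 CPM (median 0.501) and Sqle 34.1 to 45.7 CPM (median 38.6). Scd2 missed the threshold in the main fit. It passed as higher in TfhA_4e4 by DESeq2 (0.34, adjusted p = 0.0276) and with RLE (0.34) or upper-quartile scaling (0.38). Leaving out Tfh5_4e4 replicate 1 or 3 or TfhA_4e4 replicate 3 did the same.

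Within the code Tfh2, most sterol enzymes were lower in Tfh2_6e4 than in Tfh2_1e4. Between Tfh2_6e4 and Tfh2_1e4, 16 of the 18 sterol enzymes fell and 0 rose, and all 18 fold changes were negative, with a median log2 fold change of -0.75 against -0.01 over all genes. Neither an unadjusted p under 0.05 nor DESeq2 or limma-voom gave any enzyme that was higher. The 88.9% of enzymes that fell compares with 20.7% of all genes lower, 22.3% higher and 43.0% called in either direction. Over all 36 members 22 fell (61.1%) and 4 rose (11.1%). With the mitochondrial share as a covariate 17 fell and 3 rose, and the calls of Pmvk (-0.34, edgeR adjusted p = 0.0763), Fdft1 (-0.28, adjusted p = 0.104), Dhcr7 (-0.51, adjusted p = 0.130), Acaca (-0.31, adjusted p = 0.0971), Abcg1 (-0.56, adjusted p = 0.0567) and Mylip (0.93, adjusted p = 0.139) were lost. That share was 8.46 to 11.5% in Tfh2_6e4 and 5.78 to 9.95% in Tfh2_1e4. Summed epithelial markers (3 genes) moved with the number too, with medians of 0.8003, 0.889, 2.38 and 3.28 CPM from 1e4 to 6e4, and their part in these results was not tested.

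Cyp51 had the smallest adjusted p of the members. Its 6 Tfh2_1e4 libraries lay between 166.5 and 204.1 CPM (median 183.6), the Tfh2_2e4 libraries had 149.4, 165.2, 152.4, 153.6 and 158.1 CPM, and Tfh2_4e4 and Tfh2_6e4 libraries reached 69.5 to 110.7 CPM (median 93.4) and 59.8 to 82.1 CPM (median 69.2). Levels at 1e4 and 2e4 stayed above every library at 4e4 and 6e4. Tfh2_6e4 held 0.381 times the Tfh2_1e4 level (log2 fold change -1.39, SE 0.10, edgeR adjusted p = 3.65e-15). Hmgcs1 had 165.1 to 228.8 CPM in Tfh2_1e4 (median 194.0), 175.4, 194.3, 199.2, 223.7 and 245.2 CPM in Tfh2_2e4, 113.1 to 162.3 CPM in Tfh2_4e4 (median 120.9) and 74.1 to 116.7 CPM in Tfh2_6e4 (median 100.6). Its ranges at 2e4 and 1e4 overlapped, and it was lower without overlap at 6e4 than at 1e4 (log2 fold change -0.95, SE 0.11, edgeR adjusted p = 2.64e-10).

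Msmo1 had 58.9 to 69.9 CPM in Tfh2_1e4 (median 63.3), 58.6, 54.2, 60.6, 56.4 and 74.3 CPM in Tfh2_2e4, and 37.4 to 45.1 CPM in Tfh2_6e4 (median 42.1; log2 fold change of 6e4 over 1e4 -0.60, edgeR adjusted p = 6.66e-06). Nsdhl had 22.4 to 32.8 CPM in Tfh2_1e4 (median 25.2), 36.7, 28.2, 22.8, 33.9 and 25.3 CPM in Tfh2_2e4 and 12.9 to 18.3 CPM in Tfh2_6e4 (median 14.1; -0.79, adjusted p = 2.14e-05). Acat2 had 45.2 to 69.7 CPM in Tfh2_1e4 (median 56.0), 48.2, 50.9, 44.6, 50.1 and 50.5 CPM in Tfh2_2e4 and 27.8 to 50.6 CPM in Tfh2_6e4 (median 30.6; -0.71, adjusted p = 1.61e-05). Only Acat2 of these 3 overlapped between 6e4 and 1e4. Sqle had 44.2 to 56.5 CPM in Tfh2_1e4 (median 47.7), 50.9, 48.3, 64.3, 43.3 and 51.1 CPM in Tfh2_2e4 and 28.4 to 43.2 CPM in Tfh2_6e4 (median 38.8; -0.41, adjusted p = 0.00282). Sc5d had 37.5 to 52.0 CPM in Tfh2_1e4 (median 46.4), 46.4, 39.1, 52.1, 55.3 and 48.5 CPM in Tfh2_2e4 and 20.4 to 31.1 CPM in Tfh2_6e4 (median 25.0; -0.88, adjusted p = 1.83e-07). Both were lower at 6e4 than in every Tfh2_1e4 library.

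Of the remaining enzymes Fdps (62.8 ± 12.9 CPM in Tfh2_6e4 and 118.3 ± 17.0 CPM in Tfh2_1e4, SD, n = 6 each), Tm7sf2 (1.89 ± 0.736 and 5.31 ± 1.70 CPM), Lss (4.64 ± 0.620 and 8.19 ± 1.33 CPM), Dhcr7 (10.02 ± 5.47 and 17.6 ± 5.14 CPM) and Ebp (32.7 ± 1.46 and 49.3 ± 5.37 CPM) fell by 0.91, 1.5, 0.82, 0.80 and 0.59 on the log2 scale. Fdft1, Hsd17b7 and Pmvk fell by 0.45, 0.48 and 0.39. Idi1 had 0.669 to 2.10 CPM in Tfh2_1e4 (median 1.597), 0.825, 2.05, 0.704, 0.568 and 0.927 CPM in Tfh2_2e4 and 0 to 1.14 CPM in Tfh2_6e4 (median 0.241). The Idi1 call (log2 fold change -1.82, SE 0.75, edgeR adjusted p = 0.0448) rests on 18 counts in Tfh2_6e4 and 86 in Tfh2_1e4, and leaving out any of 8 libraries (Tfh2_1e4 replicates 1, 2, 3 and 6, Tfh2_6e4 replicates 2, 3, 4 and 5) lost it. Pmvk lost its call without Tfh2_1e4 replicate 2 or Tfh2_6e4 replicate 4. Mvd (45.9 ± 5.24 CPM in Tfh2_6e4 and 53.3 ± 11.9 CPM in Tfh2_1e4) and Mvk (7.58 ± 2.21 and 10.9 ± 1.14 CPM) did not pass, though Mvk did without Tfh2_6e4 replicate 1.

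The INSIG genes moved in opposite directions between 6e4 and 1e4. Insig1 had 27.1 to 74.1 CPM in Tfh2_1e4 (median 46.2), 51.9, 50.9, 41.1, 43.7 and 17.3 CPM in Tfh2_2e4, 22.6 to 41.3 CPM in Tfh2_4e4 (median 31.9) and 16.9 to 41.3 CPM in Tfh2_6e4 (median 23.5). The low value of Tfh2_2e4 belongs to replicate 6, a set-apart library, and lies below every TfhA_4e4 library. Insig1 fell between 6e4 and 1e4 with overlapping groups (log2 fold change -0.88, SE 0.21, edgeR adjusted p = 0.000607). Insig2 had 9.71 to 18.2 CPM in Tfh2_1e4 (median 13.6), 12.9, 21.3, 20.7, 23.1 and 23.2 CPM in Tfh2_2e4, 15.1 to 31.6 CPM in Tfh2_4e4 (median 19.7) and 21.9 to 29.5 CPM in Tfh2_6e4 (median 25.9). It was higher in all Tfh2_6e4 libraries than in any Tfh2_1e4 library (log2 fold change 0.87, SE 0.17, edgeR adjusted p = 3.54e-05).

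Neither SREBP gene passed. Srebf2 had 27.0 to 41.5 CPM in Tfh2_1e4 (median 39.2), 27.7, 28.8, 40.4, 35.95 and 31.8 CPM in Tfh2_2e4 and 17.3 to 41.1 CPM in Tfh2_6e4 (median 32.8; log2 fold change -0.29, edgeR adjusted p = 0.140). Srebf1 had 6.36 to 22.6 CPM in Tfh2_1e4 (median 11.9), 13.3, 5.90, 17.2, 7.57 and 22.2 CPM in Tfh2_2e4 and 3.01 to 12.6 CPM in Tfh2_6e4 (median 7.0; -0.78, adjusted p = 0.0695). Both ranges overlap, and both genes passed when certain single libraries were left out (Srebf1 without Tfh2_1e4 replicate 5 or Tfh2_6e4 replicate 3 or 4, Srebf2 without Tfh2_1e4 replicate 2 or Tfh2_6e4 replicate 4). Srebf1 also passed without the filter on low counts (-0.78, edgeR adjusted p = 0.0209) and in a fit of only the groups compared (-0.78, edgeR adjusted p = 0.0282). Scap, the escort, fell to 25.2 ± 5.53 CPM in Tfh2_6e4, against 42.7 ± 4.78 CPM in Tfh2_1e4 (SD, n = 6 each), a change of -0.75 in log2 (SE 0.14, edgeR adjusted p = 1.27e-05). Stard4 did not pass (0.19).

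Among the fatty acid genes Elovl6 and Fads1 moved apart. Elovl6 (chromosome 3, 129532386 to 129638495) had 9.14 to 13.7 CPM in Tfh2_1e4 (median 12.6), 14.0, 15.1, 19.4, 25.5 and 17.2 CPM in Tfh2_2e4, 17.0 to 37.4 CPM in Tfh2_4e4 (median 24.8) and 27.5 to 47.4 CPM in Tfh2_6e4 (median 33.0). Each Tfh2_6e4 library exceeded each Tfh2_1e4 and Tfh2_2e4 library, and the gene was 2.88-fold higher at 6e4 than at 1e4 (log2 fold change 1.53, SE 0.19, edgeR adjusted p = 7.31e-09). Fads1 had 21.2 to 32.7 CPM in Tfh2_1e4 (median 29.1), 29.3, 38.1, 18.3, 18.7 and 22.3 CPM in Tfh2_2e4, 9.35 to 20.6 CPM in Tfh2_4e4 (median 14.7) and 7.98 to 16.1 CPM in Tfh2_6e4 (median 13.6). Without overlap between the ends, its log2 fold change was -1.11 (SE 0.22, edgeR adjusted p = 4.06e-05).

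Scd1 and Scd2, the desaturases, did not pass between 6e4 and 1e4. Scd1 had 24.3 to 32.3 CPM in Tfh2_1e4 (median 30.6), 29.4, 42.6, 40.1, 42.6 and 32.8 CPM in Tfh2_2e4 and 25.1 to 33.5 CPM in Tfh2_6e4 (median 28.4; log2 fold change of 6e4 over 1e4 -0.05). Scd2 had 45.0 to 77.4 CPM in Tfh2_1e4 (median 61.7), 56.0, 83.6, 69.5, 77.0 and 51.8 CPM in Tfh2_2e4 and 62.5 to 74.5 CPM in Tfh2_6e4 (median 68.2; 0.21). Neither passed. Acsl3 fell to 65.1 ± 9.53 CPM in Tfh2_6e4, against 90.5 ± 15.3 CPM in Tfh2_1e4 (SD, n = 6 each; -0.48, edgeR adjusted p = 0.00191), and Acaca fell (-0.36, adjusted p = 0.0337), a call lost without Tfh2_1e4 replicate 4 or Tfh2_6e4 replicate 4 or 6. Acly did not pass (-0.22, adjusted p = 0.0786), but did without Tfh2_1e4 replicate 2 or 6 or Tfh2_6e4 replicate 5. Fasn had 0.727 to 2.90 CPM in Tfh2_1e4 (median 1.21), 1.24, 0.128, 0.563, 0 and 1.02 CPM in Tfh2_2e4 and 0 to 1.34 CPM in Tfh2_6e4 (median 0.736), and did not pass.

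Nr1h2 was higher at 6e4 than at 1e4, while neither exporter rose. Nr1h2 had 21.4 to 39.1 CPM in Tfh2_1e4 (median 25.4), 30.5, 32.7, 38.6, 32.4 and 28.5 CPM in Tfh2_2e4, 38.9 to 49.3 CPM in Tfh2_4e4 (median 43.9) and 42.4 to 56.0 CPM in Tfh2_6e4 (median 52.9). It was 1.84-fold higher at 6e4 than at 1e4 without overlap (log2 fold change 0.88, SE 0.13, edgeR adjusted p = 3.27e-07). Abca1 had 2.40 to 7.32 CPM in Tfh2_1e4 (median 4.90), 3.44, 1.79, 1.97, 3.78 and 2.78 CPM in Tfh2_2e4 and 3.45 to 9.57 CPM in Tfh2_6e4 (median 4.40), and did not pass. Abcg1 had 5.46 to 12.7 CPM in Tfh2_1e4 (median 10.2), 8.12, 10.4, 5.21, 6.43 and 5.84 CPM in Tfh2_2e4 and 4.98 to 11.05 CPM in Tfh2_6e4 (median 6.22). Mylip had 0.669 to 2.73 CPM in Tfh2_1e4 (median 1.37), 1.10, 1.15, 1.13, 0.946 and 2.97 CPM in Tfh2_2e4 and 1.97 to 4.57 CPM in Tfh2_6e4 (median 3.75). Abcg1 fell (-0.54, edgeR adjusted p = 0.0396) and Mylip rose (1.17, adjusted p = 0.0336). The Abcg1 call was lost without any of Tfh2_1e4 replicates 1, 2 and 6 and Tfh2_6e4 replicates 1, 2, 3 and 5, and the Mylip call without any of Tfh2_1e4 replicates 1, 2, 5 and 6 and Tfh2_6e4 replicates 3, 4 and 6.

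Of the 3 steps between neighbouring numbers, 4e4 over 2e4 held most of the calls. There, 8 of 18 sterol enzymes fell (44.4%), against 5.40% of all genes lower, 7.59% higher and 13.0% called. They were Acat2, Hmgcs1, Fdps, Sqle, Cyp51, Msmo1, Nsdhl and Sc5d. Among these 8 the largest changes were those of Nsdhl (log2 fold change -0.80, edgeR adjusted p = 0.000178), Cyp51 (-0.73, adjusted p = 2.07e-06) and Hmgcs1 (-0.72, adjusted p = 3.87e-06). By edgeR 0 of the 18 rose, and 0 were higher by DESeq2, by limma-voom or at an unadjusted p under 0.05. Fads1 fell as well (-0.82, adjusted p = 0.00982), giving 9 members lower, and Nr1h2 rose (0.44, adjusted p = 0.0266). Some of these calls lay near the threshold. Acat2 lost its call without any of Tfh2_2e4 replicates 1, 2, 5 and 6 and Tfh2_4e4 replicates 1, 4, 5 and 6, with log2 fold changes of -0.41 to -0.34 against -0.40 with all libraries. Nr1h2 lost its call without any of Tfh2_2e4 replicates 1, 5 and 6 and Tfh2_4e4 replicates 2, 4 and 5, at 0.37 to 0.42. Fads1 lost its call without Tfh2_2e4 replicate 2 (-0.62) and Sqle without Tfh2_2e4 replicate 4 (-0.34, against -0.42 with all libraries). Without the set-apart pair Nr1h2 did not pass (0.40, adjusted p = 0.0928), and Scd1 (-0.63) and Acaca (-0.47) passed as lower. Scd1 also passed as lower by DESeq2 (-0.42, adjusted p = 0.0477) and limma-voom (-0.43, adjusted p = 0.0446). It did so too without Tfh2_2e4 replicate 1 or 6 or Tfh2_4e4 replicate 1 or 3. Acsl3 passed as lower by DESeq2 (-0.37, adjusted p = 0.0426) and with the mitochondrial share as covariate (-0.42). Leaving out Tfh2_2e4 replicate 1 or Tfh2_4e4 replicate 4 or 5 did the same.

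The outer steps were smaller. For 2e4 over 1e4, 0 members passed by edgeR, DESeq2 or limma-voom, with 4 higher and 2 lower at an unadjusted p under 0.05, against 5.26% of all genes called, 4.06% higher and 1.20% lower. Insig2 came nearest (log2 fold change 0.51, edgeR adjusted p = 0.0888) and passed without Tfh2_2e4 replicate 1 (0.63). Elovl6 (0.57, adjusted p = 0.0974) and Cyp51 (-0.24, adjusted p = 0.229) did not overlap between the groups yet missed the threshold. For 6e4 over 4e4, Cyp51 alone passed (-0.42, adjusted p = 0.0262), against 1.48% of all genes called, 0.616% higher and 0.863% lower. Leaving out any of Tfh2_4e4 replicates 1, 3 and 6 and Tfh2_6e4 replicates 2, 4, 5 and 6 lost that call (-0.42 to -0.36, adjusted p 0.0507 to 0.128), and so did leaving out the set-apart pair. With the replicate number as a block, Hmgcs1 (-0.33) and Sc5d (-0.37) passed as lower too, and Elovl6 (0.49) as higher. All 18 sterol enzymes were negative in this step, with a median log2 fold change of -0.27 against -0.01 over all genes, and 8 were lower at an unadjusted p under 0.05. Without the set-apart pair Sqle (0.02) and Msmo1 (0.07) were not negative. The difference between the steps was not tested. Over the 4 numbers, the group means of 15 members fell at every step and those of 3 (Insig2, Elovl6 and Nr1h2) rose at every step, while 18 changed direction. These orders were not counted over all genes, so whether the counts are unusual cannot be said.

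**Figure D3:**
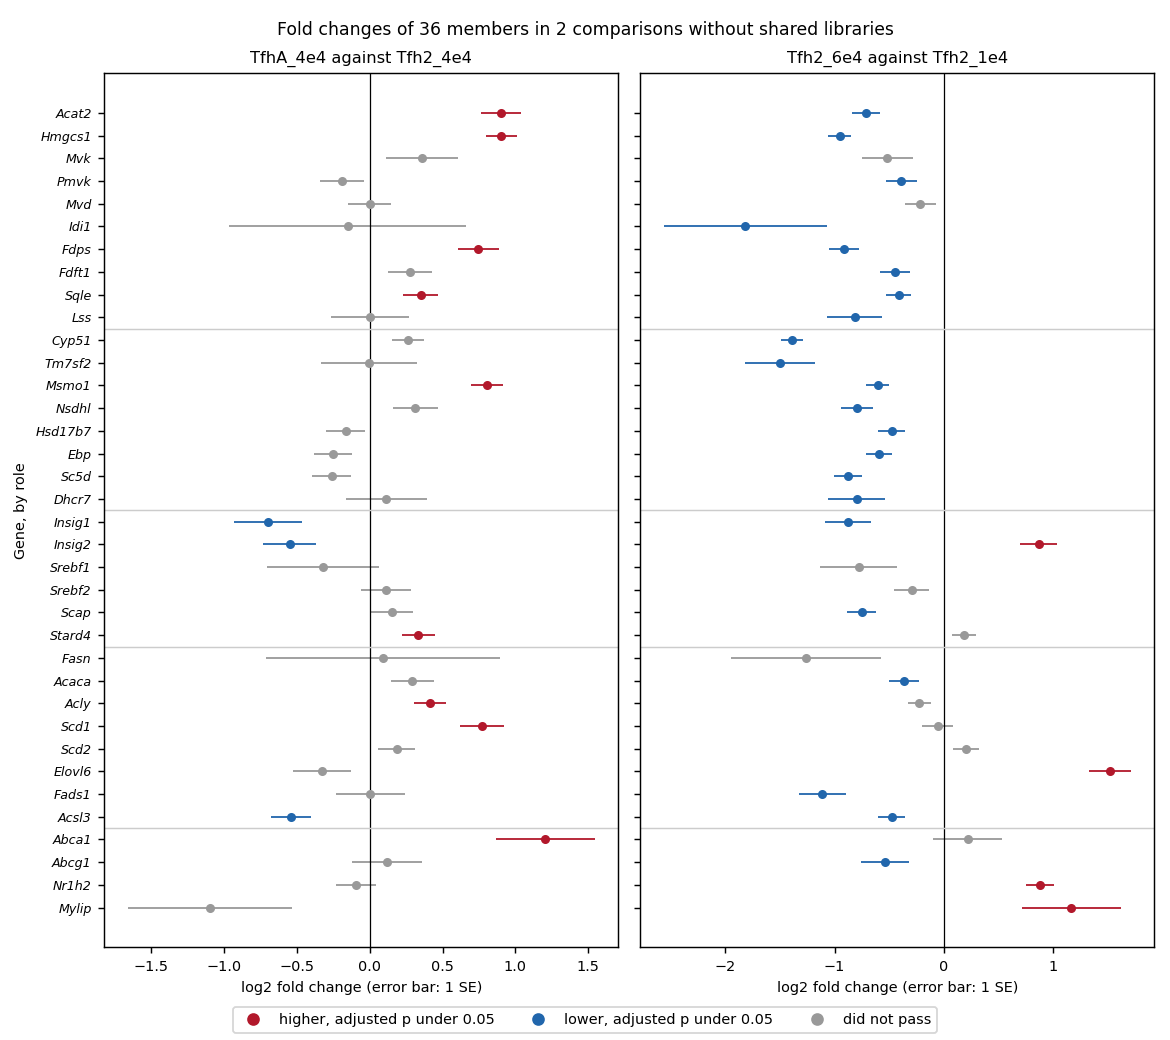
Log2 fold changes of 36 genes, ordered by role, with bars of 1 SE, for TfhA_4e4 over Tfh2_4e4 and for Tfh2_6e4 over Tfh2_1e4. Red points were higher and blue points lower at an adjusted p under 0.05 by edgeR's test, and grey points did not pass. Hmgcs1 is at 0.90 in the first comparison and -0.95 in the second, Cyp51 at 0.26 and -1.39, and Insig1 is below 0 in both.

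The comparison of TfhA_4e4 with Tfh2_4e4 and that of Tfh2_6e4 with Tfh2_1e4 share no library. Acat2, Hmgcs1, Fdps, Sqle and Msmo1 were higher in TfhA_4e4 and lower in Tfh2_6e4. Insig2 was lower in TfhA_4e4 and higher in Tfh2_6e4. Insig1 and Acsl3 were lower in both. Stard4, Acly, Scd1 and Abca1 rose in TfhA_4e4 without a call along the numbers, and Elovl6, Nr1h2 and Mylip rose in Tfh2_6e4 without a call between the codes. Another 15 members fell in Tfh2_6e4 with no call in TfhA_4e4, and 6 (Mvk, Mvd, Srebf1, Srebf2, Fasn and Scd2) passed in neither. Over all genes 32.8% were called in the first comparison and 43.0% in the second. Calls in both were not counted over all genes, so whether the members differ from them here cannot be said.

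Levels of Hmgcs1 relative to Insig1 and to Sc5d set TfhA_4e4 apart, while the other ratios taken did not. The ratio of Hmgcs1 to Insig1 was 10.5, 11.6, 11.7, 15.2 and 11.4 in TfhA_4e4 libraries, against 2.95 to 5.39 in Tfh2_4e4 libraries (median 4.29), and it was 3.05 to 6.59 in Tfh5_4e4 libraries (median 4.34). Along the Tfh2 numbers it lay between 2.703 and 7.22 at 1e4, 3.38 and 14.1 at 2e4, and 2.37 and 6.90 at 6e4, and the 14.1 belongs to replicate 6 of Tfh2_2e4, the set-apart library. The ratio of Hmgcs1 to Sc5d was 8.37 to 9.08 in TfhA_4e4 libraries (median 8.93), against 2.86 to 5.91 in Tfh2_4e4 libraries and 2.57 to 3.72 in Tfh5_4e4 libraries. The mean log2 CPM over the 18 sterol enzymes separated the groups less, at 4.66 to 4.84 in TfhA_4e4 (median 4.68), 4.48 to 4.75 in Tfh5_4e4 (median 4.57) and 4.34 to 4.74 in Tfh2_4e4 (median 4.57). Along the Tfh2 numbers from 1e4 its medians were 5.00, 4.96, 4.57 and 4.20. The ratio of Insig2 to Insig1 overlapped, at 0.595 to 1 in TfhA_4e4 libraries, 0.442 to 1.40 in Tfh2_4e4 libraries and 0.659 to 1.32 in Tfh5_4e4 libraries. That of Elovl6 to Fads1 overlapped too, at 0.854 to 3.01, 0.866 to 3.25 and 0.884 to 1.97 in the same order. The ratios were chosen after the values were seen and carry no test.

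**Figure D4:**
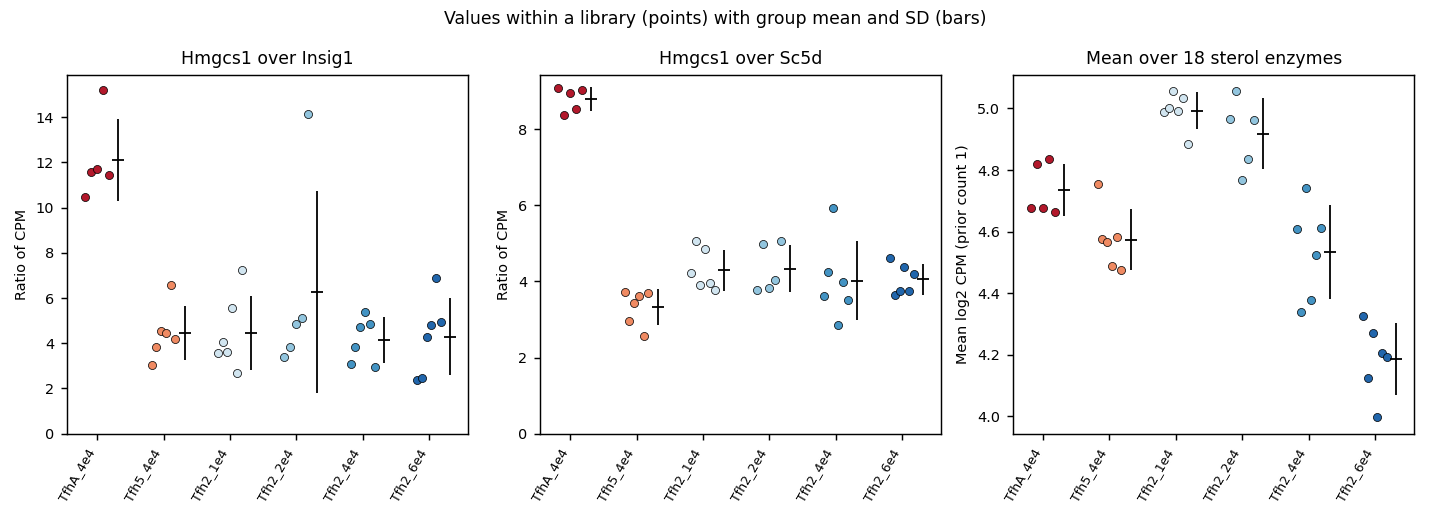
One point per library in the 6 groups, for the ratio of Hmgcs1 to Insig1 CPM, the ratio of Hmgcs1 to Sc5d CPM, and the mean log2 CPM over 18 sterol enzymes. Both ratios are highest in TfhA_4e4 (medians 11.6 and 8.93) apart from 1 Tfh2_2e4 library at 14.1 in the first, and the enzyme mean falls along the Tfh2 numbers.

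Beyond the members, 91 further genes of sterol and fatty acid metabolism were listed and 79 were tested. Of these 12 rose and 13 fell in TfhA_4e4 against Tfh2_4e4, and 17 rose and 13 fell in Tfh2_6e4 against Tfh2_1e4. The shares were 15.2% higher and 16.5% lower between the codes, beside 15.5% and 17.4% of all genes, and 21.5% higher and 16.5% lower between the numbers, beside 22.3% and 20.7% of all genes, so the list as a whole was near or below the background. By list, between the codes the counts higher and lower were 1 and 0 of 11 for isoprenoid branches, 1 and 1 of 12 for SREBP processing, 3 and 4 of 14 for sterol handling, 0 and 4 of 7 for LXR partners and targets, 4 and 1 of 17 for fatty acid synthesis and elongation, 3 and 3 of 10 for triglyceride and phospholipid synthesis, and 0 and 0 of 8 for fatty acid oxidation. For the oxidation genes, edgeR's unadjusted p was under 0.05 for 0 higher and 1 lower, and DESeq2 and limma-voom called 0. For isoprenoid branches 0 were lower by any of the 3 tools or unadjusted. For the LXR list the unadjusted count was 1 higher and 4 lower, and DESeq2 called 1 higher. Along the numbers the counts were 0 and 2, 3 and 2, 4 and 0, 2 and 2, 3 and 3, 4 and 3, and 1 and 1 in the same order of lists. Of sterol handling, 0 genes were lower by any of the 3 tools or unadjusted, and of isoprenoid branches 0 were higher. The median log2 fold change of the sterol handling genes was -0.37 in TfhA_4e4 against Tfh2_4e4 and 0.31 in Tfh2_6e4 against Tfh2_1e4, and that of the LXR list was -0.38 and 0.28, beside -0.01 over all genes in both.

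Several of these genes moved against the enzymes. Soat1, which esterifies cholesterol for storage, had 47.4 ± 4.80 CPM in TfhA_4e4 and 93.6 ± 9.21 CPM in Tfh2_4e4 (SD, n = 5 and 6; log2 fold change -0.98, edgeR adjusted p = 4.66e-10). Rnf145, a ligase of sterol sensing at the endoplasmic reticulum, had 43.6 ± 10.1 CPM in TfhA_4e4 and 82.6 ± 18.2 CPM in Tfh2_4e4 (-0.92, adjusted p = 2.22e-06), and 95.9 ± 16.7 CPM in Tfh2_6e4 and 57.9 ± 3.49 CPM in Tfh2_1e4 (0.73, adjusted p = 2.14e-05). Dgat1, the last enzyme of triglyceride synthesis, had 92.8 ± 7.79 CPM in TfhA_4e4 and 229.4 ± 28.9 CPM in Tfh2_4e4 (-1.30, adjusted p = 1.96e-12), and 283.6 ± 27.0 CPM in Tfh2_6e4 and 56.7 ± 9.38 CPM in Tfh2_1e4 (2.32, adjusted p = 3.39e-21). Rnf145 and Dgat1 thus fell in TfhA_4e4 and rose in Tfh2_6e4, the reverse of Hmgcs1.

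Vldlr, a receptor that takes up lipoproteins, had 56.2 ± 11.8 CPM in Tfh2_6e4 and 1.36 ± 0.456 CPM in Tfh2_1e4 (SD, n = 6 each; log2 fold change 5.36, edgeR adjusted p = 1.23e-23), and it was lower in TfhA_4e4 (25.1 ± 3.18 CPM) than in Tfh2_4e4 (41.7 ± 12.2 CPM; -0.73, adjusted p = 0.00126). Npc2, which moves cholesterol out of lysosomes, rose in both comparisons. It had 888.7 ± 51.9 CPM in TfhA_4e4 and 501.2 ± 43.8 CPM in Tfh2_4e4 (0.83, adjusted p = 1.07e-10), and 605.4 ± 36.4 CPM in Tfh2_6e4 and 261.8 ± 24.3 CPM in Tfh2_1e4 (1.21, adjusted p = 2.72e-16). Acss2, which makes acetyl-CoA from acetate and is an SREBP target, had 16.8 ± 3.63 CPM in Tfh2_6e4 and 6.25 ± 1.92 CPM in Tfh2_1e4 (1.43, adjusted p = 1.54e-07), opposite in direction to the sterol enzymes. Fabp5, a fatty acid carrier, had 34.1 ± 12.6 CPM in TfhA_4e4 and 11.8 ± 3.39 CPM in Tfh2_4e4 (SD, n = 5 and 6; 1.54, adjusted p = 6.91e-07).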

How the data were processed

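Counts per gene were deposited by the authors, 1 table per library, as whole numbers under numeric mouse gene identifiers. STAR 2.7.2b, featureCounts 1.6.4 and mm10 are named in the submitters' processing notes; their roles, strand setting and treatment of shared reads are not given in the sources used here. Per the labels' protocols, libraries were made with a 3′ mRNA-Seq kit. Symbols came from RefSeq's table for GRCm38.p6, which matched 25275 of 27179 identifiers. Counts were tested with edgeR 4.0.16 in R 4.3.3 (TMM scaling, filterByExpr by group, quasi-likelihood F-test, two-sided) in 1 fit of all 34 libraries, with Benjamini-Hochberg adjustment over 11357 genes and a threshold of 0.05. CPM of single genes are counts scaled to a common TMM-adjusted library total, the 2 identifiers without a symbol included. Marker sums used each library's unadjusted total. The fit was tested on simulated data, and DESeq2 1.42.0 and limma 3.58.1 (voom) were alternatives. Every member was reported by role, and values by library were given for the usual reporters of the pathway and for members at 10 CPM or more with the 3 largest called changes in a comparison. Members and lists were chosen with earlier results of these data known. The labels do not say that replicate numbers pair libraries, and 15 of 80 same-numbered pairs had r above 0.1. Still, 15 of 34 libraries matched their own number best. The main fit used no pairing, and a fit with the replicate number as a block was an alternative. Gene bodies of Fdft1, Acsl3, Lss and Srebf1 overlap those of Ctsb, Utp14b, 4930483K19Rik and Rai1, and without a stated strand setting their reads may be shared. Depth limits Idi1, Fasn, Mylip, Abca1 and Tm7sf2 most.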

Additional observations from a re-analysis of the deposited data

Results flagged for a closer look

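In 13 of 216 groups of gene values 1 library stood far from the rest of its group, where chance gives about 1 in 20. Among sterol enzymes, Hmgcs1 had 162.3 CPM in Tfh2_4e4 replicate 3, a library that also stood apart in other genes, against 113.1 to 121.9 CPM in the other libraries of the group. Idi1 had 2.05 CPM in Tfh2_2e4 replicate 2, against 0.568 to 0.927 CPM in the rest. Nsdhl had 21.8 CPM in Tfh2_4e4 replicate 5, against 14.8 to 16.8 CPM, and Hsd17b7 had 41.6 CPM in Tfh2_6e4 replicate 3, against 27.0 to 31.5 CPM. Dhcr7 had 20.9 CPM in Tfh2_6e4 replicate 1, against at least 6.70 CPM and at most 10.25 CPM elsewhere in that group.

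Of the control genes, Insig2 was low in Tfh2_2e4 replicate 1, at 12.9 CPM against 20.7 to 23.2 CPM, and Srebf2 was low in Tfh2_1e4 replicate 2, at 27.0 CPM against 36.45 to 41.45 CPM. Of the fatty acid genes, Acaca was high in Tfh2_1e4 replicate 4, at 30.8 CPM against 23.6 to 25.55 CPM, and in Tfh2_2e4 replicate 5, at 32.4 CPM against 23.9 to 26.3 CPM. Scd1 was low in Tfh2_1e4 replicate 6, at 24.25 CPM against 29.5 to 32.3 CPM, and Fads1 was high in TfhA_4e4 replicate 1, at 28.65 CPM against 8.99 to 13.1 CPM. Of the export genes, Abcg1 had 11.05 CPM in Tfh2_6e4 replicate 4, against 4.98 to 6.72 CPM, and Mylip had 2.97 CPM in Tfh2_2e4 replicate 6, the other set-apart library, against 0.946 to 1.15 CPM. Causes were not tested.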

How the results depend on the processing

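Results were recomputed under 10 other settings and without each of the 34 libraries in turn, and no call changed direction. No scaling moved the median of all genes by over 0.1 on the log2 scale. Without the filter on low counts, Sqle and Stard4 lost their calls for TfhA_4e4 against Tfh2_4e4, and Sqle for TfhA_4e4 against Tfh5_4e4. Idi1, Acaca, Abcg1 and Mylip then lost theirs for Tfh2_6e4 against Tfh2_1e4. In Tfh5_4e4 against Tfh2_4e4, where 1 member rose, 2 rose with DESeq2, limma-voom and a replicate block, and genes called numbered 582 with the replicate block against 353 without it. In Tfh2_4e4 against Tfh2_2e4, 2 members rose with the replicate block, and 0 without both set-apart libraries. There 9 members were lower as reported, 11 with DESeq2, 10 with limma-voom and 12 with the replicate block. The block added Scd1 (-0.48) and Acsl3 (-0.34) among others. In Tfh2_6e4 against Tfh2_4e4, where 168 genes were called, DESeq2 called 275, a fit of only the groups compared 74, the replicate block 381, and the fit without both set-apart libraries 90. Members lower in that step, 1 as reported, were 2 with the mitochondrial share as covariate, 0 with only the groups compared, 3 with the replicate block and 0 without both set-apart libraries, and the replicate block called 1 higher; the block added Hmgcs1 (-0.33) and Sc5d (-0.37) as lower and called Elovl6 (0.49) higher. The block also gave 10 higher and 3 lower for TfhA_4e4 against Tfh2_4e4, 10 and 7 for TfhA_4e4 against Tfh5_4e4, and 4 and 24 for Tfh2_6e4 against Tfh2_1e4. The causes were not tested.

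Without 1 library at a time, members higher and lower were 8 to 11 and 2 to 4 in TfhA_4e4 against Tfh2_4e4 (genes called 3392 to 3767), 8 to 9 and 5 to 7 in TfhA_4e4 against Tfh5_4e4, and 3 to 4 and 20 to 23 in Tfh2_6e4 against Tfh2_1e4. Tfh5_4e4 against Tfh2_4e4 gave 1 to 2 higher (genes called 239 to 405), Tfh2_2e4 against Tfh2_1e4 0 to 1 higher (437 to 602), Tfh2_4e4 against Tfh2_2e4 0 to 2 higher and 7 to 11 lower (1140 to 1502), and Tfh2_6e4 against Tfh2_4e4 0 to 1 higher and 0 to 2 lower (55 to 269). Same-numbered libraries correlated at a mean r of 0.05 and others at -0.01, and the closest match had the same number for 15 of 34 libraries, a hint of shared variation from the data. The labels give no pairing and 15 of 80 same-numbered pairs passed r of 0.1, so the block was kept as an alternative. Idi1, Fasn and Fads2 had under 100 counts in every group and Mylip in 4 of 6, which limits them to coarse statements.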
